A study of Homo sapiens with 27 samples.

Results

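The 56 genes described here drive DNA replication and cell division, and they were followed in REH cells, a human line of ETV6/RUNX1-positive B-cell precursor leukemia (BCP-ALL). They were listed by gene name: 25 genes of S phase, 27 genes of G2 and mitosis (G2/M) and 4 regulators of G1, out of 60619 genes in the count tables. All 56 were found, and all 56 passed the filter on low counts in every fit. The study asked what happens to transcription in these cells when 1 of 4 long non-coding RNAs (lncRNAs) is silenced. RNA was sequenced 72 h after medium alone or an LNA GapmeR at 10 µM was added, in 27 samples of 10 groups. A GapmeR is a short antisense oligonucleotide whose locked ends protect it, and whose DNA core lets RNase H cut the RNA it pairs with. It was taken up passively, without a transfection reagent. The groups were medium (n = 2), a non-targeting GapmeR (NTC, n = 3), lnc-NKX2-3-1 GapmeR1 (n = 2) and GapmeR2 (n = 3), lnc-RTN4R-1 GapmeR1 and GapmeR2 (n = 3 each), lnc-TIMM21-5 GapmeR1 and GapmeR2 (n = 3 each), and lnc-ASTN1-1 GapmeR1 (n = 3) and GapmeR2 (n = 2). All groups were the same line, which carries the fusion gene, so the cells had no counterpart without ETV6/RUNX1. Medium and NTC together were the 5 controls. The study's methods place replicates on different days. Replicate 3 was not among the samples of medium and lnc-NKX2-3-1 GapmeR1, nor replicate 2 among those of lnc-ASTN1-1 GapmeR2.

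Cells prepare for S phase by loading the MCM helicase onto origins, a step that needs CDC6 and CDT1 and is held back by geminin (GMNN). Cyclin E and the E2F factors then switch on the enzymes that make deoxynucleotides and copy DNA, and later a second wave of genes, with cyclin B, CDK1, PLK1 and the Aurora kinases, builds the spindle and separates the chromosomes. In bulk RNA, a higher level of such genes cannot be told apart from a larger share of cells in that phase, and no cell cycle measurement was part of the data used here.

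The samples held 14627110 to 22750945 counts in genes, and 21540 to 23947 genes had a count. A CPM value is the count over the TMM-scaled library size. Every sample of a lncRNA's own GapmeRs had less of that lncRNA than the lowest control. Of the control mean, lnc-NKX2-3-1 kept 15.2%, lnc-TIMM21-5 kept 15.7%, lnc-RTN4R-1 kept 25.2% and lnc-ASTN1-1 kept 45.1%. The target lnc-NKX2-3-1 was low in both of its GapmeR groups. GapmeR1 left it at 0.117 ± 0.0929 CPM (SD, n = 2), GapmeR2 at 0.115 ± 0.0997 CPM (SD, n = 3), and the 5 controls had 0.764 ± 0.354 CPM (SD), on 0 to 23 counts a sample. B precursor markers were found in every sample, such as CD79A, part of the B cell receptor, at 501 to 785 CPM and the B lineage factor PAX5 at 654 to 822 CPM, while VPREB1, part of the surrogate light chain, had 0 counts in all. Among markers of other cell types CD3D, HBB and EPCAM had 0 counts, CD3E, CD14 and LYZ at most 16 counts a sample, COL1A1 6.09 to 17.2 CPM and MPO 79.4 to 445 CPM, and their part in any result was not tested.

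The results turned on the GapmeRs against lnc-NKX2-3-1 and on those against lnc-RTN4R-1, so their designed sequences are shown 5′ to 3′ with the non-targeting control.
NTC: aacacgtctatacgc
lnc-NKX2-3-1 GapmeR1: tgctctgtgcggattg
lnc-NKX2-3-1 GapmeR2: ctgatttttagtagtg
lnc-RTN4R-1 GapmeR1: gcattcatgggttaag
lnc-RTN4R-1 GapmeR2: tgctgagacatctagg
On hg38, GapmeR1 against lnc-NKX2-3-1 pairs with chr10:99528207-99528222 and GapmeR2 with chr10:99528191-99528206, on the plus strand, so the sites lie side by side in an exon of the lncRNA. The sites of lnc-RTN4R-1 lie in exons on the minus strand, at chr22:20200478-20200493 for GapmeR1 and chr22:20198858-20198873 for GapmeR2. The bodies of the 56 members and of the genes of 3 further cell cycle lists, 154 genes in all, were searched for sites with up to 2 mismatches. lnc-NKX2-3-1 GapmeR1 had a site in 0 of the 154 genes and GapmeR2 in 5, of which CDC25C and POLA1 were members. lnc-RTN4R-1 GapmeR1 and GapmeR2 each had a site in 1 gene, and in 0 of the members. NTC also had a site in 1 gene, with 2 mismatches in an exon of RBL2, and in 0 of the members. The part of this site in the RBL2 values below was not tested. A site is a match of letters and not a measured binding, and no match says only that these letters are not there.

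The promoters of the members held the motifs known from textbook work on cell cycle transcription. RefSeq windows on GRCh38.p14, 300 bases long from 250 before to 50 after the start, were given for 46 of the 56 members as 65 windows. An E2F motif (TTTCCCGC, TTTGGCGC, TTTCGCGC or TTTGCCGC, on either strand) was in 16 of 28 S phase windows (57.1%), in 4 of 30 G2/M windows (13.3%) and in 3.31% of all 35116 windows. A CHR motif (TTTGAA or TTCGAA, either strand), the element of late cell cycle genes, was in 2 of 28 S phase windows (7.14%), 19 of 30 G2/M windows (63.3%) and 16.4% of all. CCAAT, the NF-Y element, was in 19 of 28 S phase windows (67.9%), 24 of 30 G2/M windows (80.0%) and 34.6% of all. The 7 windows of G1 regulators held 0 E2F and 0 CHR motifs. The windows of 2 S phase members and 2 G2/M members are shown up to 30 bases past the start, with E2F, CHR and CCAAT motifs in capitals, as examples chosen for holding an E2F or a CHR motif.
E2F2, chr1:23531204-23531483, minus strand: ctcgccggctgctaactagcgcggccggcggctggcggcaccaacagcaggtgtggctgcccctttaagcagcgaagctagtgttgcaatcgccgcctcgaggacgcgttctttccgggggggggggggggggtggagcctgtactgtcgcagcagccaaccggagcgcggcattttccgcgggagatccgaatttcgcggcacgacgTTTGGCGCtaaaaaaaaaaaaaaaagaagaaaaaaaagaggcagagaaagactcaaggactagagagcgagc
CDC6, chr17:40287629-40287908, plus strand: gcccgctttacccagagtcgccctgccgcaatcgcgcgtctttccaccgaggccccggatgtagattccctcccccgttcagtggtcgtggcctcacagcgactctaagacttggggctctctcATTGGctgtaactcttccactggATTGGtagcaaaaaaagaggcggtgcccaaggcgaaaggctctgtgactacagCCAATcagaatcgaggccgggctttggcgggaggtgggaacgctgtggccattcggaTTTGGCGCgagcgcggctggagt
BUB1, chr2:110678034-110678313, minus strand: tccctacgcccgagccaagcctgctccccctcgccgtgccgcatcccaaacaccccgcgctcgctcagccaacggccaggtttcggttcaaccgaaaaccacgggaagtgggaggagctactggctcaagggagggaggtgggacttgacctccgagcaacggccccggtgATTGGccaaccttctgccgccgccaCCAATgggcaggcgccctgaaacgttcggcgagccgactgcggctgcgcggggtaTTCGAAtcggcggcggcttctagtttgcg
CCNB2, chr15:59104896-59105175, plus strand: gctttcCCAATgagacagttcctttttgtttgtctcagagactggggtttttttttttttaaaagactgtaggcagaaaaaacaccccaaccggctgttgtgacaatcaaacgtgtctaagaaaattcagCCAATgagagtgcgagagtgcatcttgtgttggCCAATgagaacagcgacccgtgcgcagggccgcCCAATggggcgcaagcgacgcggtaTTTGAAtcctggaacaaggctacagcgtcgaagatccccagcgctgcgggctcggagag
The windows of E2F2 and CDC6 each held 1 E2F motif and no CHR motif. Those of BUB1 and CCNB2 each held 1 CHR motif, which lay downstream of CCAAT motifs, and no E2F motif. The window of KIF20A, a G2/M member described below, held 2 CCAAT motifs but 0 E2F and 0 CHR motifs.

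In the 5 controls the members spanned a wide range of levels. Per kilobase of exon, PCNA, the sliding clamp of DNA polymerases, had the highest value at 360.1 CPM per kb. The length was the union of all annotated exons of a gene, so these ranks depend on the annotation. TYMS, which makes dTMP, followed at 186 CPM per kb and TOP2A, the topoisomerase that untangles chromosomes, at 156 CPM per kb. CCND2, a D-type cyclin, was by far the lowest at 0.409 CPM per kb. CDKN1B (p27), a CDK inhibitor, came next at 5.67 CPM per kb and the phosphatase CDC25C at 5.95 CPM per kb. Their exon lengths were 9255 and 3329 bases. In CPM alone CDKN1B was above CDC25C, with medians of 60.1 and 20.6 CPM over the samples of replicate 1. The median was 51.0 CPM per kb for S phase members and 34.1 CPM per kb for G2/M members.

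The samples numbered replicate 3 stood apart before any GapmeR was compared. For each sample the log2 CPM of the S phase members was averaged after setting each gene's mean over the 27 samples to 0. This S phase mean was -0.288 to -0.10 in the 8 samples of replicate 3, against -0.0097 to 0.226 in the 10 samples of replicate 1 and 0.047 to 0.250 in the 9 of replicate 2. The ranges did not overlap, and NTC replicate 3 was the lowest sample. The G2/M mean was -0.298 to -0.0098 in replicate 3, -0.0024 to 0.188 in replicate 1 and -0.044 to 0.20 in replicate 2, and these ranges overlapped because lnc-RTN4R-1 GapmeR1 replicate 3, the highest of its number, lay above replicate 2 of lnc-TIMM21-5 GapmeR1 and of lnc-NKX2-3-1 GapmeR2.

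**Figure D1:**
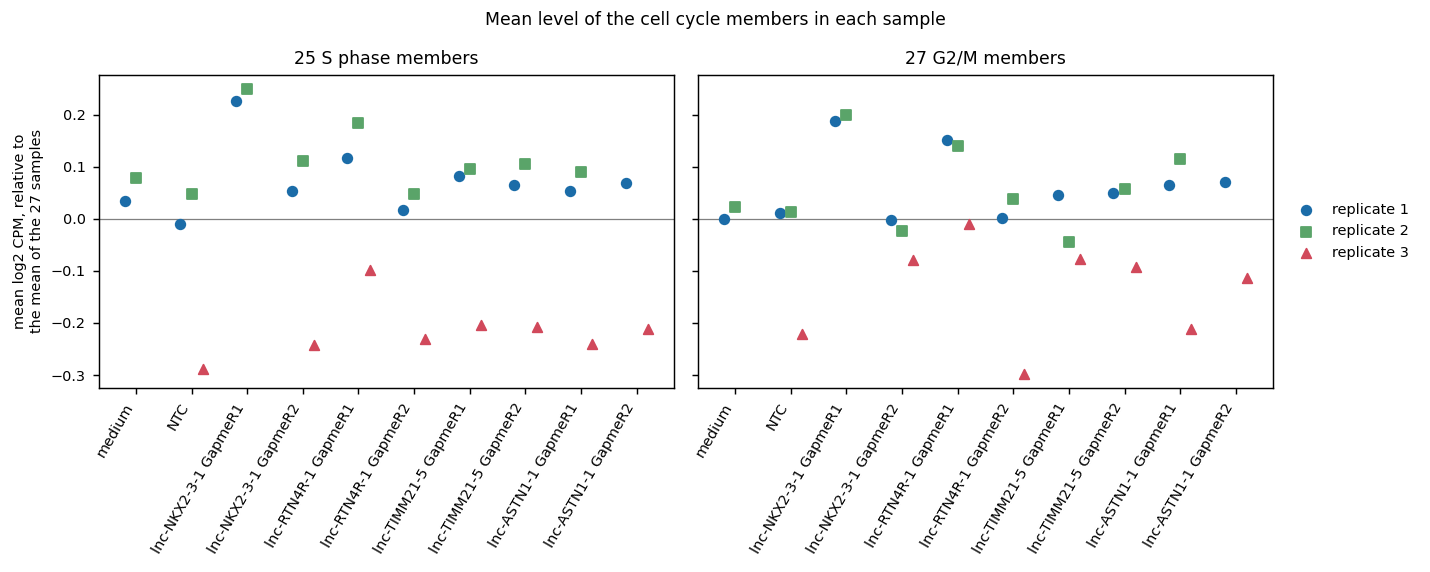
Mean log2 CPM of the 25 S phase members (left) and the 27 G2/M members (right) in each of the 27 samples, relative to the mean of all samples, by group, with marker and colour giving the replicate number. Replicate 3 lies at -0.288 to -0.10 for S phase, below every sample of replicates 1 and 2, and the 2 samples of lnc-NKX2-3-1 GapmeR1 are the highest in both plots.

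With group as a covariate, 52 of the 56 members differed between replicate 3 and replicates 1 and 2 by edgeR's quasi-likelihood test at an adjusted p under 0.05, where 54.1% of the 16268 genes tested were called and 26% were called lower. Of the S phase members 24 of 25 were lower and none higher, with a median log2 fold change of -0.32. Of the G2/M members 24 of 27 were lower and none higher, with a median of -0.19, beside a median of 0.010 over all genes. GINS1, part of the replicative helicase, was at 53.7 to 64.4 CPM in replicate 3 (median 60.2), 59.3 to 85.3 CPM in replicate 1 (median 78.0) and 63.2 to 92.4 CPM in replicate 2 (median 86.5). These ranges overlapped through lnc-NKX2-3-1 GapmeR1, the lowest group outside replicate 3, and the log2 fold change was -0.48 ± 0.026 (SE, adjusted p = 5.87e-18). RRM1, the large subunit of ribonucleotide reductase, was at 210 to 239 CPM in replicate 3 and 270 to 325 CPM in the other 19 samples, with no overlap (log2 fold change -0.40 ± 0.022, adjusted p = 6.86e-18). Its partner RRM2 fell by 0.37 on the log2 scale (SE 0.022, adjusted p = 3.29e-17), and PCNA by 0.39 (SE 0.023, adjusted p = 4.1e-17).

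Within S phase the difference was not even. In replicate 3 CCNE1 (cyclin E1) fell by 28.2%, TYMS fell by 21.3% and the helicase subunit MCM2 fell by 19.6%, whereas CDC6 fell by 7.17% and E2F1 fell by 6.91%, all with adjusted p under 0.05. E2F8, a repressor of the family, had a log2 fold change of 0.02 ± 0.031 (SE, adjusted p = 0.614). Among G2/M members CDK1 fell by 20.9%, CCNB1 (cyclin B1) fell by 19.4% and TOP2A fell by 10.0%. The mitotic kinase PLK1 fell by 6.06% and AURKA fell by 5.80%. The 3 that did not pass were the proliferation marker MKI67 (log2 fold change -0.08 ± 0.039 SE, adjusted p = 0.0831), HMMR (-0.09 ± 0.044, adjusted p = 0.0748) and the kinetochore motor CENPE (0.14 ± 0.079, adjusted p = 0.154).

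The 4 G1 regulators split. CCND2 rose in replicate 3 (log2 fold change 0.52 ± 0.078 SE, adjusted p = 3.23e-07) and so did CDKN1B (0.08 ± 0.031, adjusted p = 0.0245), though CDKN1B lay at -0.07 (adjusted p = 0.0844) when replicate 2 was left out. CDKN2C (p18), an inhibitor of CDK4 and CDK6, fell by 0.34 (SE 0.028, adjusted p = 4.58e-13), and CCND3, the abundant D-type cyclin, by 0.10 (SE 0.027, adjusted p = 0.00212). Replicate 2 differed from replicate 1 in fewer members, 15 of 56 beside 23.4% of all genes. S phase members were higher in 6 cases and lower in 1, G2/M members higher in 2 and lower in 4. The clearest was CDKN1B, at 40.1 to 58.6 CPM in replicate 2 and 54.6 to 67.9 CPM in replicate 1 (log2 fold change -0.31 ± 0.033 SE, adjusted p = 5.86e-09), followed by E2F8 (0.23 ± 0.033, adjusted p = 1.98e-06), CCND3 (0.14 ± 0.029, adjusted p = 0.000284) and AURKA (0.18 ± 0.037, adjusted p = 0.000331). UBE2C, the ubiquitin carrier of the anaphase-promoting complex, fell by 0.12 (SE 0.031, adjusted p = 0.00502) and PCNA by 0.08 (SE 0.024, adjusted p = 0.0161).

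**Figure D2:**
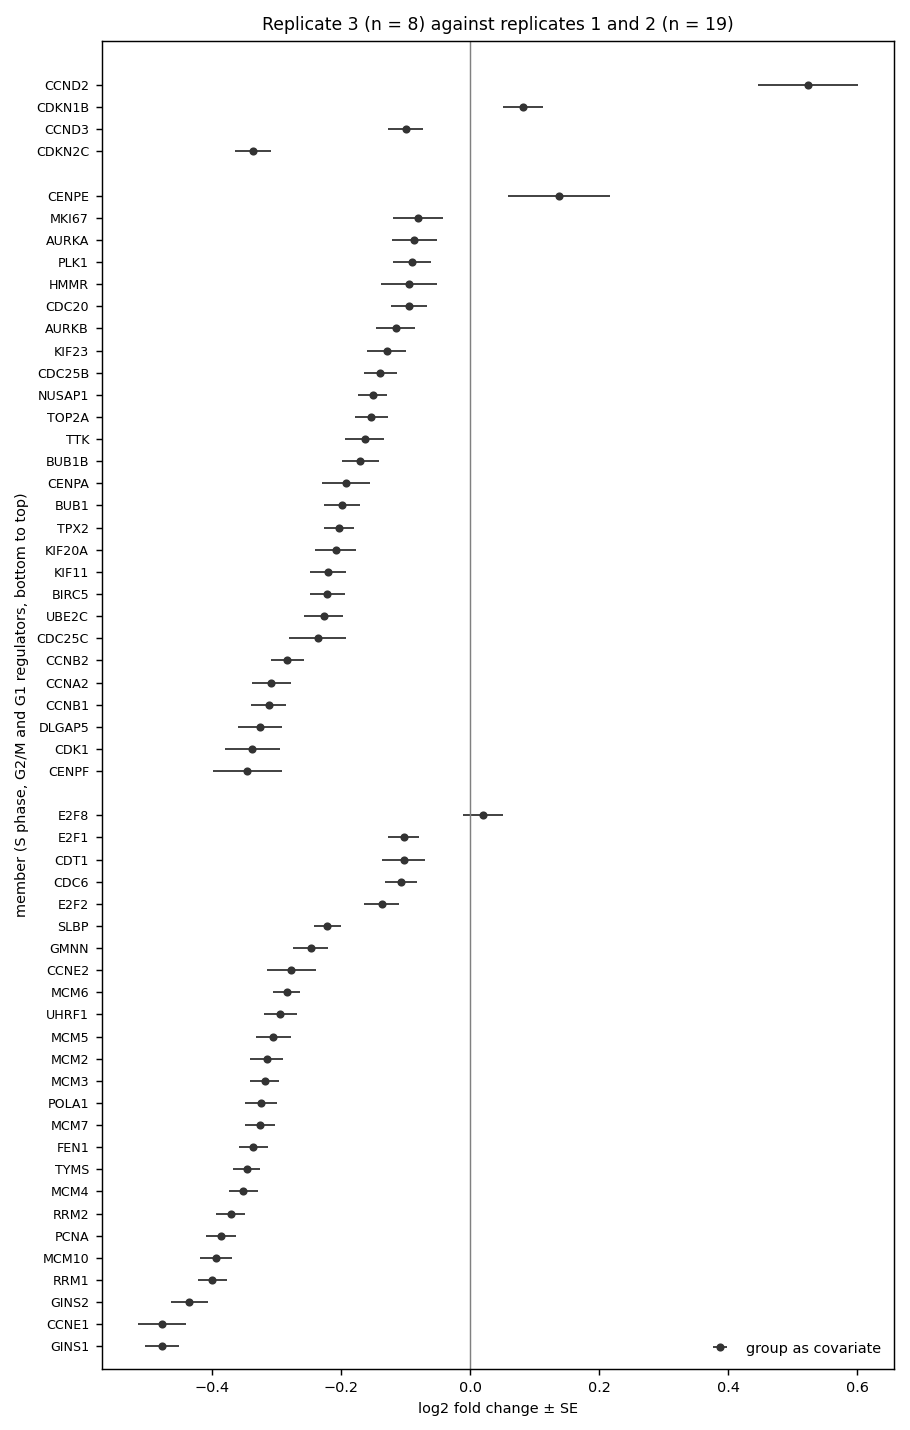
Log2 fold change ± SE of each of the 56 members in the 8 samples of replicate 3 against the 19 samples of replicates 1 and 2, with group as covariate, sorted within S phase (bottom), G2/M and G1 regulators (top). Nearly all points lie left of 0, from GINS1 at -0.48 to CCND2 at 0.52.

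Genes of the same pathway outside the 56 were compared in the same fit. Of 30 other replication genes all 30 were lower in replicate 3 (median log2 fold change -0.30), among them TIMELESS, a fork protection protein (-0.39 ± 0.023 SE, adjusted p = 2.58e-17), and RPA1, which coats single-stranded DNA (-0.36 ± 0.021, adjusted p = 3.12e-17). Of 35 other mitosis genes 32 were lower and none higher, and of 31 tested cell cycle regulators 18 were lower, 5 higher and 8 not called. The highest were cyclin D1, CCND1 (1.18 ± 0.108 SE, adjusted p = 4.32e-12), and the CDK inhibitor CDKN1C (0.70 ± 0.123, adjusted p = 6.8e-06), both named after their values were seen. Between replicates 2 and 1, SKP2, which marks CDKN1B for degradation, was higher in replicate 2 (0.23 ± 0.027, adjusted p = 4.55e-08) and CDKN2D (p19) lower (-0.31 ± 0.048, adjusted p = 4.5e-06). Sequencing measures overlapped between the replicate numbers: totals were 17657705 to 22542504 counts in replicate 1, 14627110 to 21408948 in replicate 2 and 16092002 to 22750945 in replicate 3, and reads in no gene 12.8% to 15.5%, 12.6% to 15.1% and 12.1% to 15.9%. Unmapped reads reached 4.53% in lnc-NKX2-3-1 GapmeR2 replicate 3, against at most 2.20% in replicate 1. Their medians were 1.18%, 1.35% and 1.32% in replicates 1, 2 and 3, and their part in the difference was not tested. Because groups lacked different replicate numbers, each comparison below is given without and, where it changes a count, with the replicate number as a block.

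Across the 10 groups, 6 of the 56 members differed in at least 1 group (2622 of 16268 genes, 16.1%). They were CCND2 (adjusted p = 3.36e-06), E2F2 (adjusted p = 4.53e-05), CDC6 (adjusted p = 0.00114), BUB1 (adjusted p = 0.0154), CDC25B (adjusted p = 0.0183) and KIF20A (adjusted p = 0.0375) in edgeR. With the block, 50 of 56 differed, 24 of 25 S phase, 24 of 27 G2/M and 2 of 4 G1 members, beside 48.6% of all genes. Without a block, 1 member differed when replicate 1 was left out (2.77% of all genes), 2 without replicate 2 (3.29%) and 30 without replicate 3 (20.3%). The same test called RBL2 (p130), the pocket protein of resting cells (adjusted p = 4e-06), and INCENP, a subunit of the chromosomal passenger complex (adjusted p = 7.43e-05), most clearly among the other cell cycle genes. NTC and medium did not differ in any member (0 of 56 by edgeR and 0 by DESeq2, 0 of 56 at an unadjusted p under 0.05), and 0% of all genes were called.

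**Figure D3:**
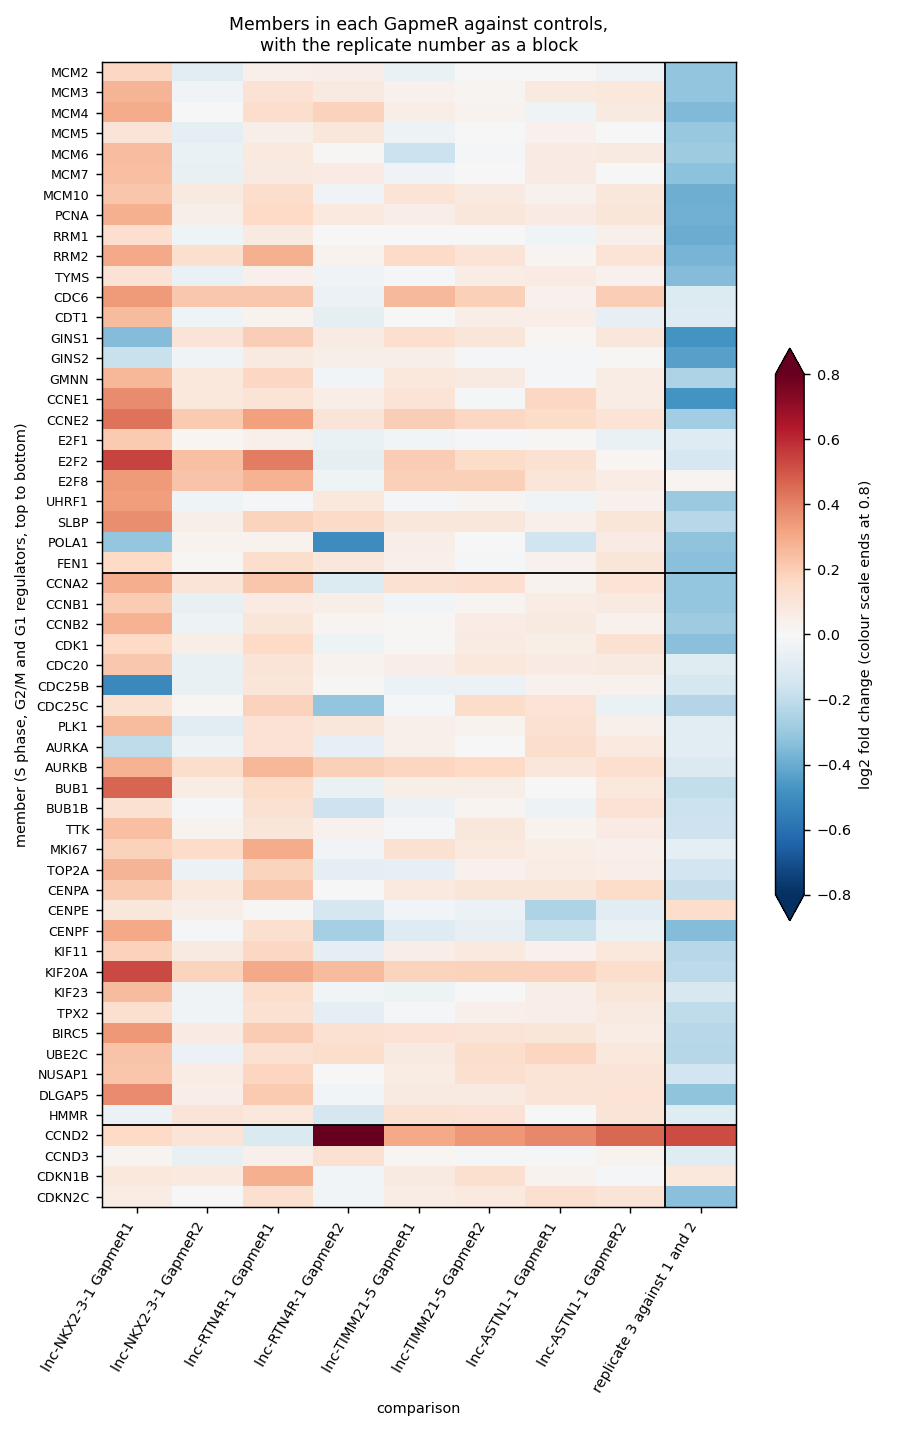
Log2 fold change (colour, red higher, blue lower, scale ending at 0.8) of the 56 members in each of the 8 GapmeRs against the 5 controls with the replicate number as a block, and, right of the line, in replicate 3 against replicates 1 and 2. The lnc-NKX2-3-1 GapmeR1 column is red for 50 of 56 members, the replicate 3 column blue for most, and CCND2 in lnc-RTN4R-1 GapmeR2 lies beyond the scale at 2.03.

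The broadest difference from the controls was that of lnc-NKX2-3-1 GapmeR1. Its 2 samples were higher than the controls in S phase and mitosis genes alike, with E2F2 up by 1.48 times and KIF20A by 1.48 times, while CDC25B was lower. By edgeR 21 of 56 members were called, 20 higher and 1 lower, where 19.7% of all genes were called and 8.14% called higher. Of S phase members 9 of 25 rose (median log2 fold change 0.30), of G2/M members 11 of 27 rose and 1 fell (median 0.26), and 0 of 4 G1 regulators changed, beside a median of -0.0040 over all genes. The group held no replicate 3, the lower one, while 1 of the 5 controls was NTC replicate 3. With the block, 45 of 56 were called, 40 higher and 5 lower (35.8% of all genes, 17.6% higher), with medians of 0.25 for S phase and 0.22 for G2/M. Without any sample of replicate 3, 41 were called (26.1% of all genes), so the difference was present within replicates 1 and 2.

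E2F2, an activator of S phase genes on chr1:23506438-23531233 (minus strand), was at 181 and 176 CPM with GapmeR1, at 123 and 125 CPM in medium and at 112, 133 and 109 CPM in NTC. Both GapmeR1 samples were above the other 25 samples. The log2 fold change was 0.57 ± 0.079 (SE, adjusted p = 9.06e-06), and 0.54 ± 0.049 (adjusted p = 6.38e-12) with the block. CDC6, which loads the MCM helicase (chr17:40287879-40304657, plus strand), was at 149 and 134 CPM with GapmeR1, at 113 and 110 CPM in medium and at 112, 112 and 102 CPM in NTC. It was higher than in every control, with a log2 fold change of 0.36 ± 0.067 (adjusted p = 0.000282). SLBP, which binds the stem-loop of histone mRNA, had 211 and 210 CPM against 139 to 171 CPM in the controls (0.41 ± 0.098, adjusted p = 0.00362), and CCNE2, cyclin E2, 47.9 and 60.2 CPM against 33.4 to 41.0 CPM (0.50 ± 0.14, adjusted p = 0.0159).

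The other S phase members called were E2F1, CDT1, E2F8, the DNA methylation cofactor UHRF1 and GMNN, with log2 fold changes of 0.23 to 0.38. The MCM subunits were called only with the block, such as MCM4 (0.30 ± 0.040, adjusted p = 1.34e-07) and MCM3 (0.27 ± 0.041, adjusted p = 1.24e-06), as were PCNA (0.29 ± 0.043, adjusted p = 7.48e-07) and RRM2 (0.30 ± 0.040, adjusted p = 8.13e-08). MCM5 was not called in either fit (block 0.10 ± 0.051, adjusted p = 0.108). Against this direction 3 S phase members were lower with the block. GINS1 was at 59.3 and 63.2 CPM with GapmeR1 and at 76.0 to 82.3 CPM in the controls of replicates 1 and 2 (block log2 fold change -0.35 ± 0.050, adjusted p = 4.04e-07). POLA1, the catalytic subunit of the polymerase that primes replication, had a block log2 fold change of -0.31 ± 0.046 (adjusted p = 6.12e-07), and GINS2 one of -0.18 ± 0.054 (adjusted p = 0.00817).

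Of the mitotic members, KIF20A, a kinesin of the central spindle (chr5:138178719-138187723, plus strand), was at 131 and 127 CPM with GapmeR1, at 87.5 and 87.6 CPM in medium and at 91.9, 94.3 and 73.8 CPM in NTC. No other sample reached the GapmeR1 values, and the log2 fold change was 0.57 ± 0.11 (SE, adjusted p = 0.000329). The checkpoint kinase BUB1 was at 238 and 259 CPM against 150 to 191 CPM in the controls (0.50 ± 0.099, adjusted p = 0.000562). Smaller rises were called for AURKB (0.30 ± 0.081, adjusted p = 0.0095), PLK1 (0.27 ± 0.076, adjusted p = 0.0119), BIRC5 (survivin, 0.39 ± 0.11, adjusted p = 0.0126) and TOP2A (0.30 ± 0.090, adjusted p = 0.0191). CDC25B, a phosphatase that activates CDKs (chr20:3786772-3806121, plus strand), went the other way. It was at 59.7 and 68.0 CPM with GapmeR1, at 88.1 and 96.6 CPM in medium and at 83.7, 94.7 and 83.8 CPM in NTC, below all other samples (log2 fold change -0.49 ± 0.092, adjusted p = 0.000398). AURKA fell only with the block (-0.20 ± 0.067, adjusted p = 0.0149), while CDK1 (0.16 ± 0.078 with the block, adjusted p = 0.126) and HMMR (-0.05 ± 0.083 with the block, adjusted p = 0.703) were not called in either fit.

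In both GapmeR1 samples 5 members lay below every control of the same replicate number, where 4708 of 16268 genes did. These were GINS1, GINS2, POLA1, CDC25B and AURKA. Above every such control lay 46 of 56 members, which 27.5% of all genes did. The same count was 40 of 56 for lnc-RTN4R-1 GapmeR1 (13.6% of all genes), 38 for the 2 samples of lnc-ASTN1-1 GapmeR2 (19.9%), 19 for lnc-ASTN1-1 GapmeR1 (10.3%), 15 and 14 for lnc-TIMM21-5 GapmeR1 and GapmeR2 (10.5% and 6.23%), 11 for lnc-NKX2-3-1 GapmeR2 (10.4%) and 9 for lnc-RTN4R-1 GapmeR2 (18.3%). For samples of replicate 3 the only such control was NTC replicate 3. Leaving out the library of lnc-NKX2-3-1 GapmeR1 replicate 1 left 9 members called (10.9% of all genes) and leaving out that of replicate 2 left 6 (9.22%), so the count without the block rested on both. With the block each of these left 38 (25.8% and 23.1% of all genes). Without all samples of replicate 1 no member was called (0 of 56, 5.69% of all genes), and without those of replicate 2 there were 3 (6.15%).

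**Figure D4:**
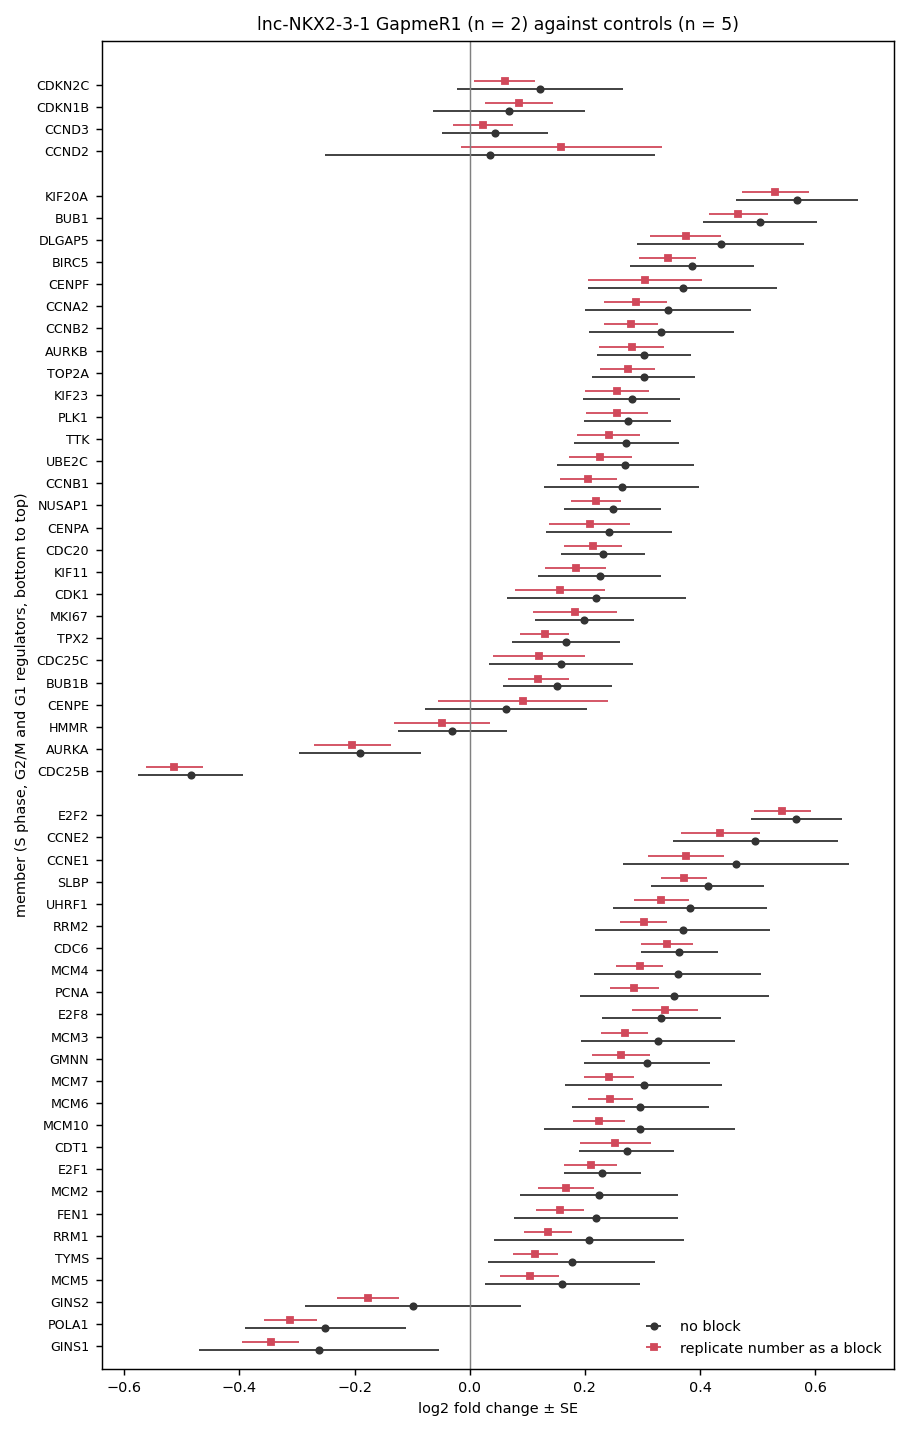
Log2 fold change ± SE of each of the 56 members in lnc-NKX2-3-1 GapmeR1 (n = 2) against the 5 controls, without (black) and with (red) the replicate number as a block, sorted within S phase (bottom), G2/M and G1 regulators (top). Points run from -0.51 to 0.57, the block narrows most error bars, and GINS1, POLA1, GINS2, AURKA, CDC25B and HMMR lie left of 0.

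Other cell cycle genes with lnc-NKX2-3-1 GapmeR1 were called higher in 16 of 35 mitosis genes, 4 of 30 replication genes and 6 of 31 regulators, with 1 regulator lower. INCENP, the partner of AURKB and BIRC5, was at 261 and 296 CPM against 144 to 175 CPM in the controls (log2 fold change 0.80 ± 0.099 SE, adjusted p = 1.5e-06). RBL2, which represses E2F targets in resting cells, was at 90.1 and 91.8 CPM against 135 to 143 CPM (-0.63 ± 0.061, adjusted p = 2.75e-08). These 2 groups did not overlap in either gene.

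The second GapmeR against lnc-NKX2-3-1, whose site adjoins that of the first, gave no difference of that breadth. 0 of 56 members were called by edgeR and 0 by DESeq2 (3 at an unadjusted p under 0.05, 0.0307% of all genes called), with medians of -0.011 for S phase and 0.0035 for G2/M. These medians carry its sample of replicate 3. Against controls of the same number, the S phase mean was higher in 3 of 3 samples, by 0.0419 to 0.0498. The G2/M mean was higher in 1 of 3 (-0.041 to 0.142). With the block 4 S phase members were higher (3.17% of all genes), E2F2 (0.24 ± 0.044, adjusted p = 0.00127), CDC6 (0.21 ± 0.040, adjusted p = 0.00153), E2F8 (0.23 ± 0.051, adjusted p = 0.0102) and RRM2 (0.13 ± 0.036, adjusted p = 0.0384). Compared directly, GapmeR1 and GapmeR2 differed in 15 of 56 members, 14 higher with GapmeR1 and 1 lower (17.8% of all genes, 6.71% higher), and in 40 with the block (33.4%). PLK1 was at 189 and 203 CPM with GapmeR1 and at 152, 156 and 145 CPM with GapmeR2 (0.38 ± 0.083, adjusted p = 0.00231). BUB1 differed by 0.48 ± 0.11 (adjusted p = 0.00307), E2F2 by 0.34 ± 0.088 (adjusted p = 0.00753) and CDC25B by -0.41 ± 0.099 (adjusted p = 0.00493). INCENP (0.77 ± 0.11, adjusted p = 1.72e-05) and RBL2 (-0.58 ± 0.065, adjusted p = 3.92e-07) also differed between the GapmeRs. In this direct comparison, leaving out either GapmeR1 library left 3 members called without the block (10.8% of all genes without replicate 1, 7.96% without replicate 2) and 34 with it (25.1% and 21.6%). When both GapmeRs were pooled against the controls, 0 of 56 were called by edgeR or DESeq2 (8 at an unadjusted p under 0.05) and 0% of 14850 genes.

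Without the block, the members called for lnc-RTN4R-1 were E2F2 and MKI67 with GapmeR1 and CCND2 and POLA1 with GapmeR2. With the block, KIF20A was called higher with both GapmeRs. The 2 of 56 called with GapmeR1 both rose, beside 2.32% of all genes called, and the 2 with GapmeR2 stood beside 9.56%. E2F2 was at 161, 166 and 147 CPM, above the 109 to 133 CPM of the controls (0.39 ± 0.071, adjusted p = 0.00143), a call lost without replicate 1 (adjusted p = 0.452). Without replicate 3, 6 members were called (2.96% of all genes). MKI67, the antigen Ki-67, was at 734, 694 and 697 CPM against 547 to 623 CPM (0.28 ± 0.075, adjusted p = 0.0459), a call lost against NTC alone (adjusted p = 0.197), without replicate 1 (adjusted p = 0.946) and without replicate 2 (adjusted p = 0.307). With the block 26 rose and none fell, 13 S phase, 12 G2/M and CDKN1B, where 8.8% of all genes were called and 5.71% called higher. The clearest were E2F2 (0.41 ± 0.044, adjusted p = 3.31e-09), RRM2 (0.29 ± 0.036, adjusted p = 9.56e-08) and KIF20A (0.31 ± 0.052, adjusted p = 5.41e-05). Of other genes, CDKN2D rose (0.66 ± 0.13, adjusted p = 0.00532) and so did the mitotic entry factor CDCA3 (0.29 ± 0.062, adjusted p = 0.00693).

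GapmeR2 against lnc-RTN4R-1 changed 2 of 56 members (9.56% of all genes), CCND2 and POLA1. CCND2, the cyclin D2 gene on chr12:4269771-4305353 (plus strand), was at 11.5, 14.3 and 15.4 CPM with GapmeR2 and at 2.52 to 6.28 CPM in all other samples. Its mean was 13.7 ± 2.02 CPM (SD, n = 3), while the controls averaged 3.27 ± 0.90 CPM (SD, n = 5). On the log2 scale the rise was 2.09 ± 0.22 (SE, adjusted p = 3.34e-07). POLA1 (chrX:24693873-24996986, plus strand) was at 88.9, 82.0 and 69.6 CPM against 98.0 to 126 CPM in the controls, with no overlap (-0.54 ± 0.12, adjusted p = 0.00509). The CCND2 call held without each replicate number in turn, at 1.99 to 2.17, whereas that of POLA1 was lost without replicate 1 (adjusted p = 0.13) and without replicate 2 (adjusted p = 0.169), and 6 members were called without replicate 3 (10.2% of all genes). With the block 12 of 56 were called, 8 higher and 4 lower (26.3% of all genes), so that KIF20A (0.26 ± 0.053, adjusted p = 0.000337) and MCM4 (0.18 ± 0.036, adjusted p = 0.000112) rose while CDC25C (-0.32 ± 0.077, adjusted p = 0.00174), BUB1B and CENPF fell. Among regulators, LIN54, the DNA-binding subunit of the DREAM complex, fell (-0.44 ± 0.064, adjusted p = 2.86e-05), and the CDK inhibitor CDKN1A (p21) rose (0.47 ± 0.071, adjusted p = 4.95e-05).

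**Figure D5:**
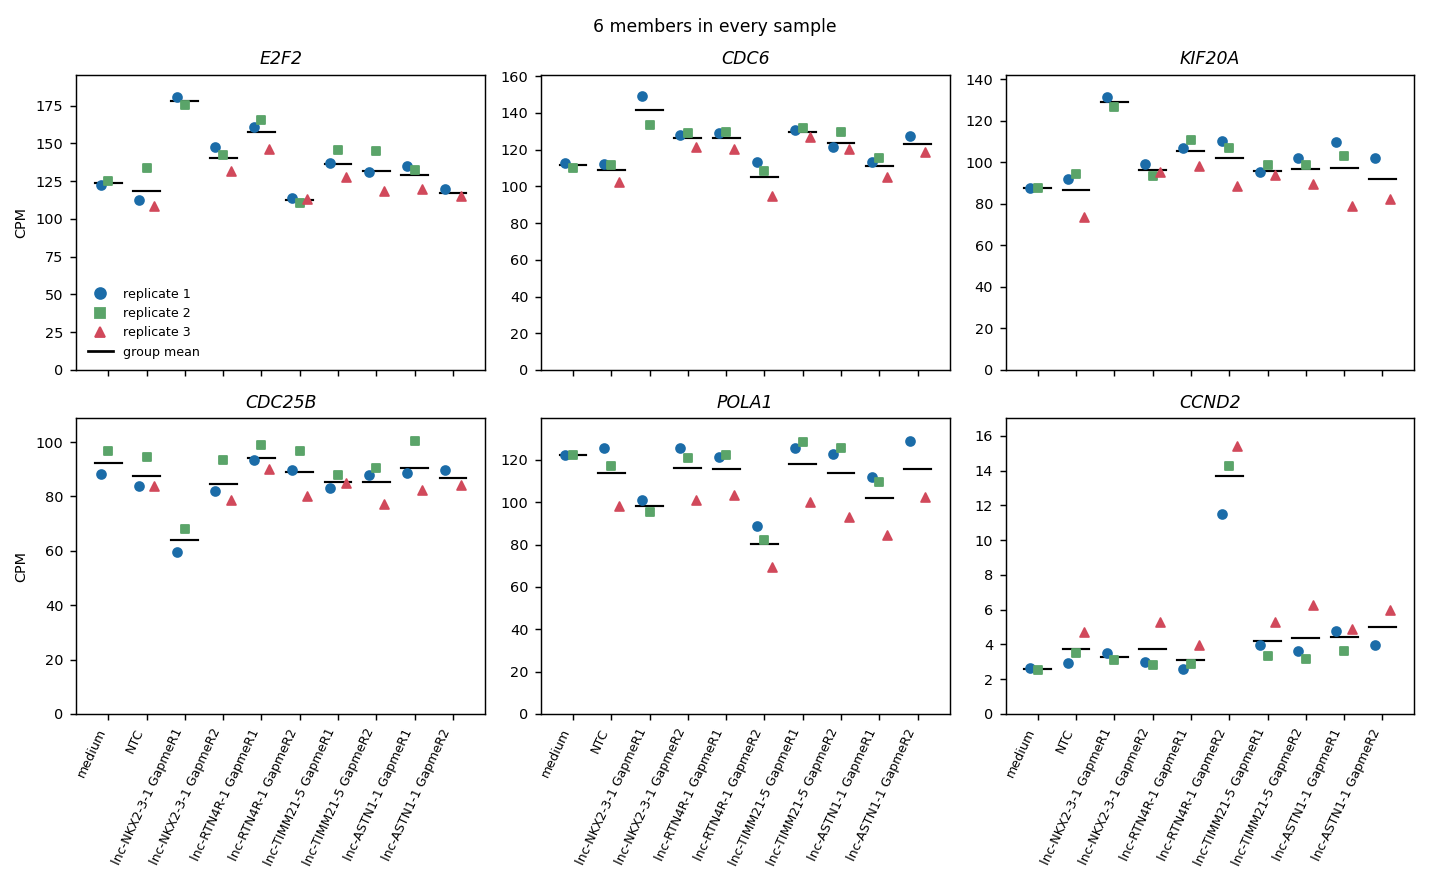
CPM of 6 members in each of the 27 samples by group, with marker and colour giving the replicate number and black bars the group means, on axes that start at 0. E2F2, CDC6 and KIF20A are highest and CDC25B lowest in lnc-NKX2-3-1 GapmeR1, and lnc-RTN4R-1 GapmeR2 lies above all other samples in CCND2 (11.5 to 15.4 CPM) and below the controls in POLA1 (69.6 to 88.9 CPM).

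Compared with each other, the GapmeRs against lnc-RTN4R-1 differed in 6 of 56 members (9.09% of all genes). GapmeR1 was higher in E2F2 (0.49 ± 0.080, adjusted p = 0.000157), CDC25C (0.50 ± 0.13, adjusted p = 0.011), CDC6 (0.26 ± 0.066, adjusted p = 0.0117), POLA1 (0.53 ± 0.14, adjusted p = 0.0136) and MKI67 (0.32 ± 0.085, adjusted p = 0.0185), and lower in CCND2 (-2.13 ± 0.26, adjusted p = 2.62e-06). The median was 0.07 for S phase and 0.18 for G2/M members. With the block 26 differed, 25 of them higher with GapmeR1 (26.3%). LIN54 (0.51 ± 0.070, adjusted p = 1.54e-05) and CDKN1A (-0.45 ± 0.080, adjusted p = 0.000399) differed too. Without replicate 1, 1 member differed (2.64% of all genes) and without replicate 2 there were 3 (2.84%). Pooled against the controls, 0 of 56 were called by edgeR and by DESeq2 (3 at an unadjusted p under 0.05, 0.476% of 14911 genes). With the block 4 were higher (1.96%), KIF20A, SLBP, AURKB and MCM4, with log2 fold changes of 0.16 to 0.29.

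For the GapmeRs against lnc-TIMM21-5, 0 to 7 of 56 members were called, depending on the fit. The S phase mean of all 6 samples was nonetheless above that of the controls of the same number, by 0.0338 to 0.0845 on the log2 scale, as it was in 21 of the 22 samples treated with a GapmeR against a lncRNA. The exception was lnc-RTN4R-1 GapmeR2 replicate 2 at -0.0142. The G2/M mean was above in 17 of the 22. These samples shared 5 controls, so they are not independent of each other. The only control of replicate 3 was NTC replicate 3, the sample with the lowest S phase mean. For lnc-TIMM21-5 GapmeR1 0 of 56 were called by edgeR (4 at an unadjusted p under 0.05) and 1 by DESeq2, where 0.209% of all genes were called, for GapmeR2 0 (2 unadjusted, 0 by DESeq2, 0.0676%) and between them 0 (0 unadjusted, 0 by DESeq2, 0.141%). Pooled, 0 of 56 were called (5 unadjusted, 1 by DESeq2) and 0.00665% of 15029 genes. With the block GapmeR1 had 6 (2.98%), led by CDC6 at 131, 132 and 127 CPM against 102 to 113 CPM in the controls (0.26 ± 0.040, adjusted p = 5.07e-05), with MCM6 the member that fell (-0.18 ± 0.035, adjusted p = 0.00211). GapmeR2 had CDC6 only (0.19 ± 0.040, adjusted p = 0.00914, 0.584%), the direct comparison MCM6 only (-0.17 ± 0.039, adjusted p = 0.0311, 0.375%), and the pooled comparison 7 higher members (1.32%), CDC6, E2F2, KIF20A, E2F8, RRM2, AURKB and CCNE2.

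For lnc-ASTN1-1, 0 of 56 members were called with GapmeR1 (0 unadjusted, 1.2% of all genes), with GapmeR2 (2 unadjusted, 0.0184%), between them (0 unadjusted, 0.553%) or pooled (1 unadjusted, 0.0136% of 14755 genes) by edgeR, and 0 in each by DESeq2. With the block GapmeR1 had 3 (4.77%), POLA1 lower (-0.16 ± 0.040, adjusted p = 0.01) and UBE2C and KIF20A higher. The direct comparison then had POLA1 only (-0.23 ± 0.051, adjusted p = 0.0057, 1.67%), and the pooled one KIF20A only (0.19 ± 0.041, adjusted p = 0.0184, 0.881%). Outside the members PRIM2, the large primase subunit, was at 18.1, 16.6 and 12.01 CPM with GapmeR1 against 27.4 to 42.6 CPM in the controls (-1.26 ± 0.18, adjusted p = 0.0001) and differed between the GapmeRs (-1.15 ± 0.21, adjusted p = 0.00445). This GapmeR had sites with 2 mismatches in introns of PRIM2 and of MELK, the 2 genes of 154 in which it had any. lnc-TIMM21-5 GapmeR1 also had a site with 2 mismatches in an intron of PRIM2, and there the log2 fold change of PRIM2 was 0.02 ± 0.159 against the controls (SE, adjusted p = 0.999) and 0.05 ± 0.178 against lnc-TIMM21-5 GapmeR2 (adjusted p = 1). PRIM2 shares sequence with near-identical copies, so its counts are uncertain. The other sites of lnc-TIMM21-5 GapmeR1 with 2 mismatches lay in introns of the members MCM6 and POLA1 and of NUF2 and POLE2. With the block, MCM6 was lower than with lnc-TIMM21-5 GapmeR2, as given above (-0.17 ± 0.039, adjusted p = 0.0311). POLA1 (0.05 ± 0.044, adjusted p = 0.908), NUF2 (-0.11 ± 0.050, adjusted p = 0.756) and POLE2 (0.01 ± 0.057, adjusted p = 0.991) were not called. lnc-ASTN1-1 GapmeR2 had sites with 2 mismatches in 6 of the 154 genes, among them an intron of MCM6 and an exon of RPA1. MCM6 was not called between the lnc-ASTN1-1 GapmeRs with the block (GapmeR1 against GapmeR2 -0.01 ± 0.044, adjusted p = 0.974). The part of any site was not tested.

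Levels of the core genes over the 10 groups show how far these differences reached. lnc-NKX2-3-1 GapmeR1 had the highest mean of all groups for 45 of the 56 members, a description that carries the lack of replicate 3 in that group. How often it was highest over all genes was not counted, so the 45 stand without that share. The ranks of the other groups also carry their replicate numbers, since replicate 3 was 0 of 2 samples in medium, 1 of 2 in lnc-ASTN1-1 GapmeR2 and 1 of 3 in the rest. lnc-ASTN1-1 GapmeR2 had the lowest mean for MCM2 and E2F1 below, while the S phase means of its samples were 0.0572 and 0.0764 above the controls of the same number. For the replication genes, lnc-NKX2-3-1 GapmeR1 had a mean of 536 ± 13.8 CPM (SD, n = 2) for MCM2, where the lowest group, lnc-ASTN1-1 GapmeR2, had 418 ± 62.5 CPM (SD, n = 2). PCNA ran from 483 ± 78.3 CPM in NTC (SD, n = 3) to 645 ± 0.377 CPM in lnc-NKX2-3-1 GapmeR1, and RRM2 from 224 ± 32.6 CPM to 297 ± 7.19 CPM in the same groups. TYMS ran from 421 ± 62.2 CPM in lnc-NKX2-3-1 GapmeR2 to 507 ± 6.19 CPM in GapmeR1, with medium next at 478 ± 6.74 CPM. CDC6 ran from 105 ± 9.76 CPM in lnc-RTN4R-1 GapmeR2 to 141 ± 10.98 CPM, CCNE1 from 27.2 ± 5.79 CPM in lnc-TIMM21-5 GapmeR2 to 39.3 ± 0.472 CPM, and E2F1 from 149 ± 9.96 CPM in lnc-ASTN1-1 GapmeR2 to 186 ± 1.33 CPM, each highest in lnc-NKX2-3-1 GapmeR1.

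For the mitotic genes, CCNB1 ran from 126 ± 10.99 CPM in lnc-NKX2-3-1 GapmeR2 to 163 ± 9.58 CPM in GapmeR1, and PLK1 from 151 ± 5.77 CPM to 196 ± 9.48 CPM in the same groups. CDK1 ran from 168 ± 34.9 CPM in lnc-RTN4R-1 GapmeR2 to 206 ± 8.65 CPM in lnc-NKX2-3-1 GapmeR1, and TOP2A from 933 ± 111 CPM to 1226 ± 6.17 CPM in these groups. MKI67 was highest in lnc-RTN4R-1 GapmeR1 at 709 ± 21.9 CPM and lowest in GapmeR2 at 569 ± 69.5 CPM. AURKA was lowest in lnc-NKX2-3-1 GapmeR1 at 40.4 ± 2.16 CPM and highest in lnc-ASTN1-1 GapmeR1 at 50.4 ± 6.54 CPM. Of the G1 regulators, CCND3 ran only from 438 ± 61.0 to 496 ± 42.3 CPM and CDKN2C from 97.7 ± 11.7 to 111 ± 0.492 CPM, spans close to the spread within groups, while CDKN1B ran from 47.5 ± 10.4 CPM in medium to 63.9 ± 4.83 CPM in lnc-RTN4R-1 GapmeR1 and was higher there with the block (0.28 ± 0.051, adjusted p = 9.14e-05). Apart from lnc-RTN4R-1 GapmeR2, group means of CCND2 lay between 2.58 ± 0.0816 CPM in medium and 4.97 ± 1.41 CPM in lnc-ASTN1-1 GapmeR2.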

How the data were processed

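RNA from 27 samples of REH cells in 10 groups was sequenced. The deposited files hold counts of reads per gene on 60619 identifiers, made by the authors with STAR on hg38, and the column of the reverse-stranded count was used (95.3% of reads counted on either strand). The annotation release behind the counts is not given in the sources used here. The labels describe ribosomal RNA depletion and the study's methods poly-A selection. Names came from GENCODE for 56434 identifiers. One marker gene of the list for B precursors is not reported here. Samples were grouped by their labels, and totals of 14627110 to 22750945 counts set the precision. Columns for other strands and the rows of unassigned reads were left out of library sizes.

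Counts were tested in edgeR 4.0.16 (R 4.3.3) with TMM factors, filterByExpr (minimum count 10, total 15) and the robust quasi-likelihood F test, with Benjamini-Hochberg adjustment over all genes and a threshold of 0.05. Single GapmeRs were fitted with all 27 samples (16268 genes), and pooled lncRNA comparisons on their own samples. Log2 CPM used a prior count of 2. Alternatives were DESeq2 1.42.0, its size factors, no low-count filter, the replicate number as a block, other sample sets and leaving out each replicate number. Leaving out single lnc-NKX2-3-1 GapmeR1 libraries was chosen after seeing the data. Members and lists were chosen with earlier results of these data known.

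The study's methods place replicates on different days. Deviations from group means correlated at 0.263 on average over 109 pairs with the same number (94 over 0.1) and at -0.13 over 218 pairs with different numbers, so the block is given beside results it changes. The p-values measure the spread between these samples of 1 line. Genes were named by a rule: 17 core genes in every group, up to 3 members per direction with the smallest adjusted p in each comparison, and up to 2 genes of the other cell cycle lists, with further called members named after their values were seen.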

Additional observations from a re-analysis of the deposited data

Results flagged for a closer look

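Both GapmeRs against the same lncRNA were compared directly, and results that differed between them are listed here. Groups held 2 or 3 samples, below the 4 from which a single sample far from its group was looked for, so this was not tested. For lnc-NKX2-3-1, 15 members differed between GapmeR1 and GapmeR2 by edgeR, where 17.8% of all genes did. On the log2 scale the difference (GapmeR1 minus GapmeR2) among S phase members was 0.344 for E2F2, 0.391 for SLBP, 0.321 for CDT1, 0.229 for E2F1, 0.454 for UHRF1 and 0.384 for MCM6. Among G2/M members it was 0.375 for PLK1, 0.476 for BUB1, 0.302 for CDC20, 0.371 for TOP2A, 0.425 for KIF20A, 0.324 for KIF23, 0.412 for CCNB2, 0.345 for BIRC5 and -0.408 for CDC25B. GapmeR1 had no sample of replicate 3 and GapmeR2 had 1. The target had 1 to 4 counts a sample with GapmeR1 and 0 to 4 with GapmeR2, too few to compare its level between them.

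For lnc-RTN4R-1, 6 members differed between the GapmeRs, where 9.09% of all genes did. The difference was -2.13 for CCND2, and 0.487 for E2F2, 0.50 for CDC25C, 0.263 for CDC6, 0.53 for POLA1 and 0.315 for MKI67.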

How the results depend on the processing

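Counts of called members depended most on the replicate number. With the number as a block they became 45 for lnc-NKX2-3-1 GapmeR1 against controls (21 without), 4 for its GapmeR2, 40 between these GapmeRs (15 without), 26 and 12 for lnc-RTN4R-1 GapmeR1 and GapmeR2, 26 between them, 4 pooled, 6 and 1 for lnc-TIMM21-5, 1 between them, 7 pooled, 3 for lnc-ASTN1-1 GapmeR1, 1 between its GapmeRs, 1 pooled and 50 for any difference among groups; the block changed no other call, and all 58 single genes named kept theirs. Leaving out a replicate number gave 0 to 41 for lnc-NKX2-3-1 GapmeR1 and 0 to 34 against GapmeR2, 0 to 6 and 1 to 6 for lnc-RTN4R-1 GapmeR1 and GapmeR2, 1 to 9 between them, 0 to 1 pooled, 0 to 1 for lnc-ASTN1-1 GapmeR1 and 1 to 30 for any difference. Leaving out 1 lnc-NKX2-3-1 GapmeR1 library, chosen after seeing the data, gave 9 and 6 (38 and 38 with the block) against controls and 3 and 3 (34 and 34) against GapmeR2. Without the low-count filter the counts were 37, 32, 6, 5, 10 and 29 for lnc-NKX2-3-1 GapmeR1, its direct comparison, lnc-RTN4R-1 GapmeR1, GapmeR2, their direct comparison and any difference. DESeq2 gave 4 for lnc-RTN4R-1 GapmeR1, 1 for lnc-TIMM21-5 GapmeR1, 1 for that lncRNA pooled and 13 for any difference. NTC as the only control gave 1 for lnc-RTN4R-1 GapmeR1, and 1 fit of all samples gave 5 for lnc-NKX2-3-1 pooled and 2 for lnc-RTN4R-1 pooled. The shares of all genes called without the filter, by DESeq2, with NTC alone and in 1 fit of all samples are not given. The counts of these settings are therefore not set against all genes. The log2 difference of CDKN1B in replicate 3 ranged from -0.0665 (without replicate 2) to 0.229 (without replicate 1). The cause of these shifts was not tested. Other size factors changed no call, and DESeq2 kept all 129 named calls, while 5 named calls were lost with NTC as the only control, 4 without the low-count filter and 1 on the comparison's own samples. Far more named calls were lost without replicate 1 and without replicate 2, though each kept more than it lost. Leaving out 1 lnc-NKX2-3-1 GapmeR1 library lost more of its named calls than it kept without the block, and nearly none with it. All of these fits left 1 sample in that group. Groups of 2 or 3 samples limit what could be called.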
